A study of Pan troglodytes and Macaca mulatta with 12 samples.

Results

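Within the RNA of lymphoblastoid cell lines from 2 primates, some exons were read many times in one species and not once in the other. A silent exon is defined here as one with 0 counts summed over all 6 libraries of one species and at least 50 counts summed over the 6 libraries of the other, in a gene that had at least 1 count in both species. There were 548 silent exons in 240 genes, out of 119202 exons of 16903 genes with any count. Of these, 256 exons of 103 genes were silent in chimpanzee and read in rhesus macaque, and 292 exons of 137 genes were silent in rhesus macaque and read in chimpanzee. No gene held silent exons of both kinds (0 of 240 genes). The exons were chosen by these same summed counts, so their zeros and their levels are given as a description, without a test.

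Lymphoblastoid lines are B cells that were made to divide without end in the dish, usually with a virus. Donors were 6 chimpanzees (Pan troglodytes, 3 female and 3 male by the labels) and 6 rhesus macaques (2 female and 4 male), with 1 library each, grown in standard medium with no treatment named. The series design states that each library of a species comes from a separate animal. Library totals ran from 1434241 to 4751954 counts, in all 16206228 counts for chimpanzee and 17739797 for rhesus macaque. The B cell markers of these lines could not be checked, because 0 of the 16903 gene identifiers matched a gene symbol in the tables used here. Genes are therefore described by position, in the coordinates printed in the files, with no genome build named in the sources used here.

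An exon is a stretch of a gene that stays in the messenger RNA after splicing. The first and last exons usually carry the untranslated ends of the message, and the inner exons most of the coding sequence. Cells can vary a message by starting or ending it at another exon or by skipping an inner exon, and the species that share a gene can differ in these choices. An exon can also lack reads because its whole gene is quiet, or because the reads of one species do not align to the exon as defined. The counts of the other exons of the same gene show whether a zero stands alone or goes with a low count of the whole gene. They do not tell a gene that is little transcribed from one whose exons were not matched in that species, which was not tested. In whole cultures, fewer cells using an exon and fewer messages per cell cannot be told apart.

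Silent exons were rare among well-read exons. Of the 43351 exons with at least 50 counts in rhesus macaque, in genes counted in both species, 0.591% had no count in chimpanzee. Of the 47561 such exons in chimpanzee, 0.614% had no count in rhesus macaque. The share was higher among exons near the threshold: 0.979% of exons with 50 to 99 rhesus macaque counts were silent in chimpanzee, against 0.0596% (4 exons) of those with 500 or more. In the other direction the shares were 1.04% and 0.130% (8 exons). A count of 0 was also the end of a continuous range. Exons with exactly 1 chimpanzee count and at least 50 in rhesus macaque numbered 220, and those with 2 counts 134. The numbers with 1 and 2 rhesus macaque counts were 246 and 165.

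Most silent exons had modest counts where they were read. The median sum in the 6 libraries was 92 for those read in rhesus macaque and 86.5 for those read in chimpanzee, and 54.7% and 60.6% of them had fewer than 100 counts. In CPM, which put each count on the scale of a common library size, the median of the exons' means was 5.56 and 5.46. With a floor of 3 counts over the 6 silent libraries, the median exon was at least 29.8-fold higher in rhesus macaque and at least 29.6-fold higher in chimpanzee. The floor covers counting error only. Exons just inside the threshold, with 50 counts, included one on chromosome 1 from 77301248 to 77302307 for rhesus macaque and one on chromosome 17 from 60584875 to 60584925 for chimpanzee. Just outside it, with 49 counts and 0 in the other species, were exons on chromosome 12 from 56310528 to 56310568 (rhesus macaque) and on chromosome 20 from 52016852 to 52017019 (chimpanzee).

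By length, the medians of the 2 kinds lay on opposite sides of those of other well-read exons. Exons silent in chimpanzee had a median length of 143 bases, against 159 bases for the other 43095 exons with at least 50 rhesus macaque counts. Exons silent in rhesus macaque had a median of 170 bases, against 157 bases for the other 47269 exons with at least 50 chimpanzee counts. Long exons made up a smaller share of both kinds: 3.91% and 4.79% of silent exons had at least 1000 bases, against 8.91% and 8.26% of the others. Very short exons of at most 50 bases made up 7 of the 256 exons silent in chimpanzee (2.73%, against 0.534% of the others) and 1 of the 292 silent in rhesus macaque (0.342%, against 0.463%). These shares are descriptions, since exons of 1 gene are not independent of each other.

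**Figure D1:**
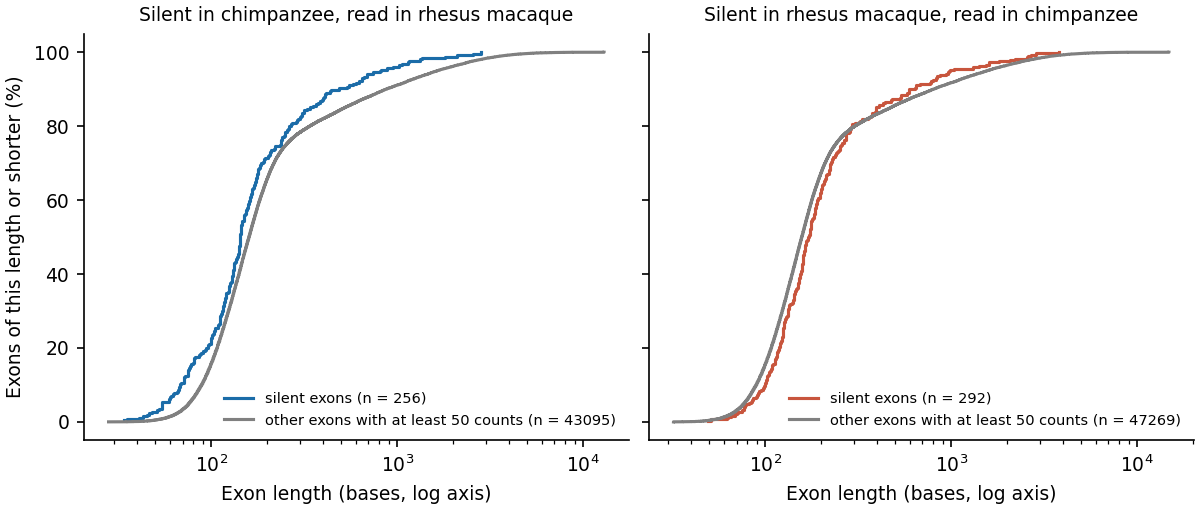
Cumulative share of exons (percent) by exon length (bases, log axis), for silent exons (coloured) and the other exons with at least 50 counts in the species that reads them (grey). The curve of exons silent in chimpanzee lies left of the grey curve (medians 143 and 159 bases), and that of exons silent in rhesus macaque lies right of it over the short lengths (medians 170 and 157 bases).

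The 7 very short exons were 34 to 48 bases long and lay beside exons with at most 11 counts in chimpanzee. One of 34 bases on chromosome 12, from 56305173 to 56305206, had 72 counts in rhesus macaque, while its neighbours had 121 and 100 counts there and 1 and 4 in chimpanzee. Another of 48 bases on chromosome 4, from 40958650 to 40958697, had 152 rhesus macaque counts, and its neighbours 324 and 286 against 2 and 2 in chimpanzee. The single short exon silent in rhesus macaque, 49 bases on chromosome 14 from 105477053 to 105477101, had 53 chimpanzee counts, of which 98.1% were in replicate 2.

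Place in the gene was taken from the order of the counted exons along the chromosome. In all genes the exon numbers of the files rise with position and the files give no strand, so the first exon here is the one at the lowest coordinate and may be the start or the end of the message. Exons silent in chimpanzee were first in 28 cases (10.9%), inner in 198 (77.3%) and last in 30 (11.7%). Among the other well-read exons of rhesus macaque, in genes with more than 1 exon, the shares were 13.3%, 73.4% and 13.3%. Exons silent in rhesus macaque were first in 32 cases (11.0%), inner in 227 (77.7%) and last in 33 (11.3%), against 12.1%, 75.8% and 12.1%. Most silent exons of both kinds were inner exons, as were most other well-read exons, and the shares lay within a few percentage points of each other. None was the only counted exon of its gene, since the condition on the gene leaves no such case.

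By the level of the other exons the silent exons were put into a large and a small class. The cut, 50 counts on the other exons in both species, was set here on a continuous range. In most genes the other exons were nearly silent as well. Summed over the exons that are not silent, the median gene holding an exon silent in chimpanzee had 5 chimpanzee counts and 453 rhesus macaque counts. The median gene holding an exon silent in rhesus macaque had 6 rhesus macaque counts and 507 chimpanzee counts. After scaling for library size, the other exons were at least 10-fold lower in the silent species in 96 of the 103 genes (93.2%) and in 122 of the 137 genes (89.1%), with medians of 62.1-fold and 66.2-fold. In 57 and 78 genes the other exons held fewer than 10 counts in the silent species. In the plot of counts on other exons these genes lie away from the diagonal.

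**Figure D2:**
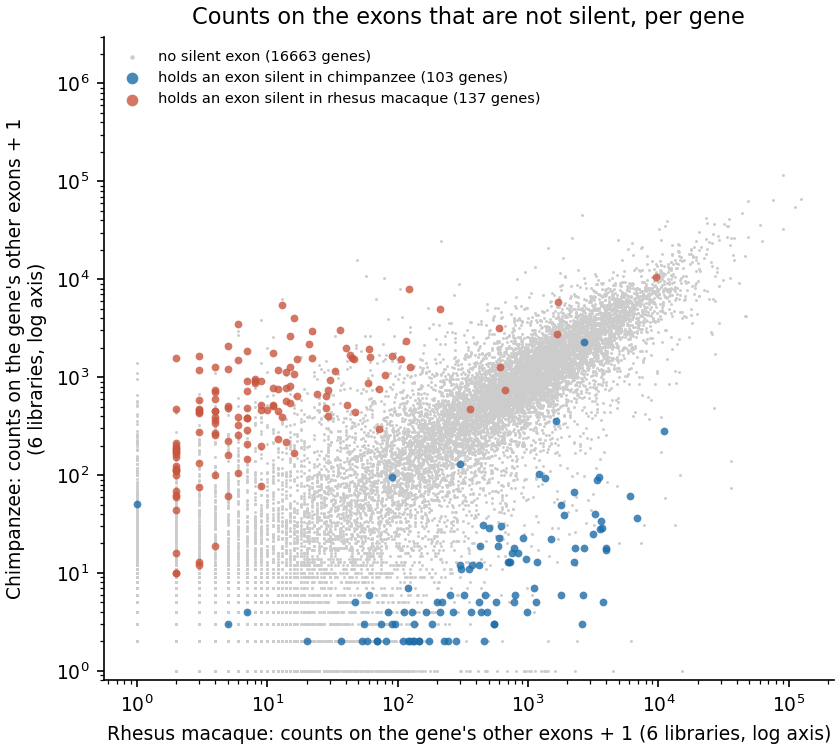
Counts on the exons that are not silent, summed per gene over 6 libraries, plus 1, in rhesus macaque (x axis, log) and chimpanzee (y axis, log). Each point is a gene. Most of the 103 genes holding an exon silent in chimpanzee (blue) lie at low chimpanzee counts, and most of the 137 holding an exon silent in rhesus macaque (red) at low rhesus macaque counts, while a few of both lie among the other 16663 genes.

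The species test on these other exons covers part of the genes. The edgeR quasi-likelihood test was fitted to gene sums without the silent exons, over 9405 genes, of which 24.6% were called higher and 23.4% lower in chimpanzee (adjusted p under 0.05). Of the 103 genes holding an exon silent in chimpanzee, 54 passed the filter on low counts, 51 were called lower and 0 higher in chimpanzee, and 3 were not called. Of the 137 genes of the other kind, 85 passed the filter, 81 were called higher and 0 lower in chimpanzee, and 4 were not called. Nothing is read from these counts: the contrast is the one that chose the exons, and a gene low in one species passes the filter only through the other. The tested genes had median log2 fold changes (chimpanzee minus rhesus macaque) of -5.87 and 5.96, against 0.04 over all genes tested.

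Many silent exons shared such a little-read gene with other silent exons. Single silent exons were found in 62 and 87 genes, pairs in 11 and 22, and 3 or more in 30 and 28. The genes with 3 or more held 172 of the 256 exons silent in chimpanzee and 161 of the 292 silent in rhesus macaque. A silent exon lay directly beside another one in 116 and 141 cases, and 184 and 210 had at least 1 neighbouring exon at 0 in the same species. These neighbours are a description, since zeros were common in such genes. Of all counted exons of the genes holding an exon silent in chimpanzee, 57.7% were at 0 there. A neighbour with 10 or more counts in the silent species was found for 6 exons silent in chimpanzee and 12 silent in rhesus macaque.

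The gene with most exons silent in rhesus macaque was ENSG00000041982, on chromosome 9 from 116822627 to 116920307. Of its 26 counted exons 22 were silent exons, and the gene held 6358 chimpanzee and 5 rhesus macaque counts. Its most read silent exon, from 116887964 to 116889373, had 201, 58, 393, 565, 5 and 109 counts in chimpanzee replicates 1 to 6, a mean of 91.1 ± 87.3 CPM (SD, n = 6). The chimpanzee libraries differed widely here, with 2.00 CPM in replicate 5 and 215 CPM in replicate 4. On chromosome 10, from 95059767 to 95232064, 21 of 51 exons of a gene were silent exons, with 4221 counts in chimpanzee and 20 in rhesus macaque for the whole gene. A gene with 11 silent exons among 16, on chromosome 1 from 205694293 to 205729859, had 2754 and 7 counts.

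In the other direction the gene with most silent exons was on chromosome 1 from 31891787 to 31940415. Of its 54 exons 19 were silent exons, not all side by side, and it had 17 chimpanzee and 4885 rhesus macaque counts. A gene on chromosome 10 from 72102565 to 72192203 had 15 silent exons among 22, and just 2 chimpanzee counts against 4369 in rhesus macaque. On chromosome 1 from 43543109 to 43561366, 10 of 21 exons were silent exons, with 24 and 5359 counts on the gene. All 6 of these genes were read at every counted exon in one species. In the other, from 11 of 21 to 20 of 22 of their exons were at 0.

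The most read silent exon of all belonged to ENSG00000205464, on chromosome 5 from 81649573 to 81649981, the last of 7 counted exons. It had 1073, 1042, 621, 729, 1486 and 911 counts in rhesus macaque replicates 1 to 6, and none in chimpanzee. The mean was 380 ± 173 CPM (SD, n = 6), or at least 1901-fold higher than in chimpanzee by the floor of 3 counts. All 6 rhesus macaque libraries were high, from 195 to 648 CPM. Its gene had 5 silent exons, and the remaining 2 exons held 4 chimpanzee counts against 3743 in rhesus macaque.

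The next exons silent in chimpanzee were read far less evenly. An inner exon on chromosome 11, from 8903586 to 8904230, had 391, 70, 6, 61, 27 and 21 counts in rhesus macaque replicates 1 to 6, so that replicate 1 alone held 67.9% of them. An inner exon on chromosome 8, from 87231457 to 87231633, had 50, 220, 185, 41, 22 and 20 counts. Replicates 2 and 3 stood above the others at this exon. On chromosome 1, the exon from 43551393 to 43551683 had 0, 26, 24, 63, 128 and 269 counts and was not read in rhesus macaque replicate 1 either. The first exon on chromosome 7 from 115367239 to 115369330, 2092 bases long, had 36, 17, 12, 33, 183 and 181 counts. Its highest libraries were replicates 5 and 6.

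Among exons silent in rhesus macaque, the most read was the last of 6 exons on chromosome 12 from 111841675 to 111841881. It had 144, 343, 202, 236, 146 and 434 counts in chimpanzee replicates 1 to 6 and a mean of 91.0 ± 27.4 CPM (SD, n = 6), or at least 516-fold higher than in rhesus macaque by the same floor. The chimpanzee libraries were all high, from 58.3 to 139 CPM. The other 5 exons of this gene held 5468 chimpanzee counts and 12 rhesus macaque counts. The last exon of a gene on chromosome 17, from 42742504 to 42745076, had 162, 38, 234, 178, 24 and 316 counts, and the first exon of a gene on chromosome 18, from 27457131 to 27459722, had 79, 67, 75, 40, 95 and 150. They are long exons, of 2573 and 2592 bases. The chromosome 18 exon was the more even of the pair, from 15.2 to 54.5 CPM, against 9.58 to 112 CPM on chromosome 17.

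**Figure D3:**
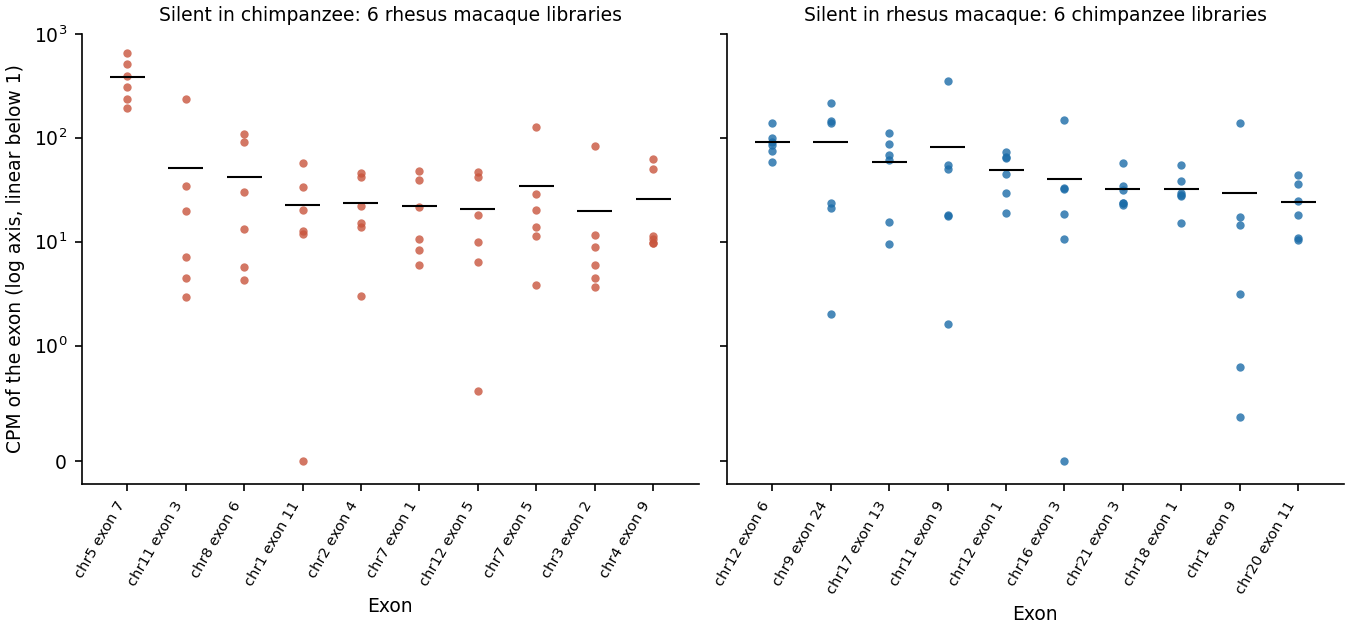
CPM of the 10 silent exons with most counts in each direction (log axis, linear below 1), labelled by chromosome and exon number. Points are the 6 libraries of the species that reads the exon and the line is their mean. The chromosome 5 exon lies between 195 and 648 CPM in every rhesus macaque library, while the chromosome 1 exon 9 runs from 0.381 to 139 CPM between chimpanzee libraries.

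Across all silent exons, 178 of 256 (69.5%) were read in all 6 rhesus macaque libraries and 201 of 292 (68.8%) in all 6 chimpanzee libraries. The fewest libraries with a count were 2, for 8 exons read in rhesus macaque and for 1 read in chimpanzee. A single library held more than 50% of the counts for 85 and 67 exons. Those silent in chimpanzee together took 2344 ± 676 CPM of the rhesus macaque libraries, and those silent in rhesus macaque 2417 ± 666 CPM of the chimpanzee libraries (SD, n = 6 each). Rhesus macaque replicate 1 was highest with 3530 CPM and replicate 3 lowest with 1554. Chimpanzee replicate 1 was highest with 3321 CPM and replicate 6 lowest with 1541. The libraries of both species therefore differed by more than 2-fold in the total that these exons took.

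Counted per base, the median exon silent in chimpanzee stood at 1.10 times the rate of the other exons of its gene in rhesus macaque (quartiles 0.739 and 1.77). The median exon silent in rhesus macaque stood at 1.22 times the rate of its gene in chimpanzee (quartiles 0.870 and 1.66). A rate of over 5 times that of the other exons was seen for 9 and 3 exons. The rule asked for at least 50 counts of the silent exons and not of the others, so these rates are a description.

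A same-ratio count was formed for each exon: the count it would have had in the silent species, had it kept its ratio to the other exons of the gene. It is the exon's count in the species that reads it, multiplied by the silent species' counts on the other exons and divided by the other species' counts there. It was under 3 for 215 of the 256 exons silent in chimpanzee (84.0%) and for 239 of the 292 silent in rhesus macaque (81.8%). It lay between 3 and 10 for 29 and 37 exons. It was 10 or more for 11 and 16 exons. Some of these rest on very few counts: the first of 2 exons on chromosome 20, from 55399870 to 55400280, had 274 rhesus macaque counts and a same-ratio count of 137, from 3 chimpanzee and 6 rhesus macaque counts on its other exon. One exon had no count on the other exons of its gene in the species that reads it, so no ratio could be formed.

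**Figure D4:**
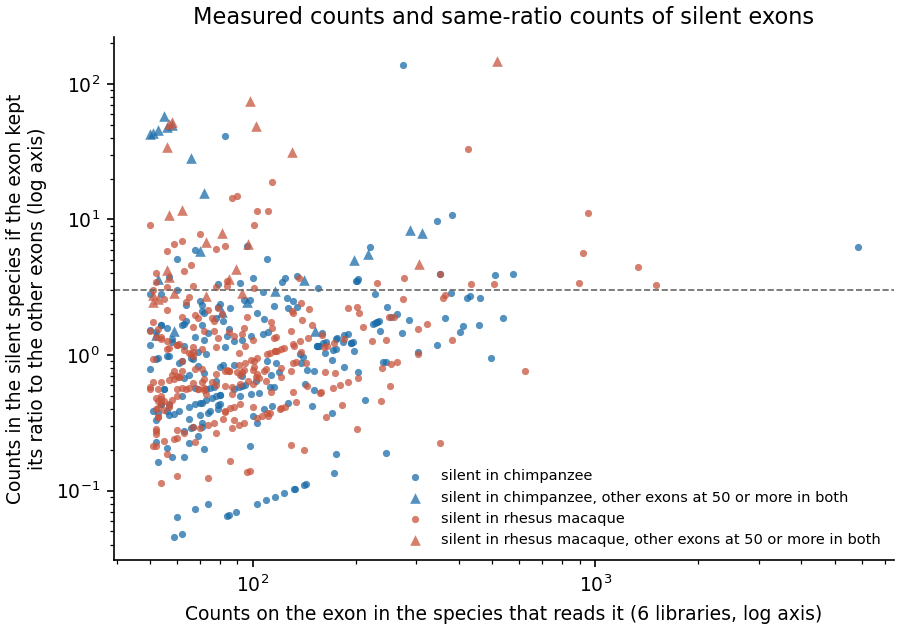
Same-ratio count in the silent species (y axis, log) against the count in the species that reads the exon (x axis, log), summed over 6 libraries, for 547 silent exons. Triangles are exons in genes whose other exons have at least 50 counts in both species, and the dashed line marks 3 counts. Most points lie under the line, and the highest is a chromosome 21 exon with 515 counts and a same-ratio count of 148.

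The small class consists of exons whose gene was read in both species, though often at very different levels. The classes overlap in fold: in a gene on chromosome 4, from 40953685 to 40965202, the other exons were 99.1-fold lower in chimpanzee. With at least 50 counts on the other exons in both, 21 exons of 11 genes were silent in chimpanzee (8.20%) and 23 exons of 19 genes in rhesus macaque (7.88%). By place, 17 of the 21 and 17 of the 23 were inner exons. Their median lengths were 125 and 132 bases. Of the 11 genes, 8 were lower in chimpanzee on their other exons and 3 were not called (edgeR adjusted p under 0.05), where 23.4% of all genes tested were lower. Of the 19 genes, 15 were higher in chimpanzee and 4 were not called, where 24.6% of all genes tested were higher. This contrast chose the exons, and nothing is read from these counts either. The same-ratio count was 10 or more for 8 of the 21 exons, in 4 genes, and for 9 of the 23, in 8 genes. The ratio compares these 17 exons with their genes and is not a test.

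The largest gap between a zero and a same-ratio count was in ENSG00000157601, on chromosome 21 from 41714312 to 41745040. Its exon 3, from 41721552 to 41721663, had 45, 140, 63, 59, 86 and 122 counts in chimpanzee replicates 1 to 6 and 0 in rhesus macaque. The mean was 32.0 ± 13.1 CPM (SD, n = 6), with every chimpanzee library between 22.5 and 56.8 CPM. The exon held 8.01% of the gene's 6428 chimpanzee counts, while 0 of 1705 counts in rhesus macaque allow a share of up to 0.176%. At the same ratio 148 counts would have been read. The next exon had 171 chimpanzee and 36 rhesus macaque counts, and the 8 exons after it from 247 to 1544 and from 68 to 634. The 2 exons before it were hardly read in either species, with 1 and 3 chimpanzee counts and 1 and 0 in rhesus macaque. The silent exon is therefore the first well-read exon, by position, of this gene in chimpanzee. By counts pooled over the libraries and scaled for library size, the other exons were 3.57-fold higher in chimpanzee. The separate edgeR estimate was a log2 fold change of 2.01 (standard error 0.33, edgeR adjusted p = 0.000238).

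On chromosome 22, from 37460676 to 37481479, a gene was read at almost the same level in both species, with 10656 and 9511 counts on its other 16 exons (log2 fold change 0.14, standard error 0.27, edgeR adjusted p = 0.703). Its exon 16, of 65 bases from 37480593 to 37480657, had 2, 11, 6, 10, 14 and 14 counts in chimpanzee replicates 1 to 6 and 0 in rhesus macaque. It was a minor exon in chimpanzee too, with 0.532% of the gene's counts, against up to 0.0315% that 0 of 9511 counts allow. The exon before it had 352 and 185 counts, and the exon after it 17 and 15. The zero thus stands alone between 2 exons that were read in both species.

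At a few other end and inner exons silent in rhesus macaque, the zero lay beside at least 1 exon read in both species. The first exon of a gene on chromosome 6, from 13687662 to 13687820, had 5, 18, 7, 8, 6 and 14 counts in chimpanzee replicates 1 to 6. The next exon had 88 and 67 counts, and the other exons together 738 and 669 (edgeR adjusted p = 0.746). The first exon held 7.29% of the chimpanzee counts of the gene, against up to 0.448% in rhesus macaque. The last exon of a gene on chromosome 10, from 75568570 to 75568695, had 3, 11, 10, 7, 8 and 17 counts, and the exon before it 262 and 127. Here the other exons were 1.67-fold higher in chimpanzee by pooled, scaled counts. The edgeR estimate was a log2 fold change of 0.94 (standard error 0.23, edgeR adjusted p = 0.00376). All 6 chimpanzee libraries read both of these end exons.

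An inner exon on chromosome 6, from 143804268 to 143804807, had 12, 4, 14, 13, 11 and 44 counts in chimpanzee and took 17.2% of the gene's counts, against up to 0.831% in rhesus macaque. Its neighbours were read in both species, with 27 and 22 chimpanzee counts and 26 and 35 rhesus macaque counts. On chromosome 1 the exon from 6008967 to 6009092 had 5, 12, 16, 12, 14 and 43 counts, or 7.43% of the gene against up to 0.489%. The exon before it had 14 chimpanzee and 34 rhesus macaque counts, and the exon after it 3 and 1. Both genes were thus read in rhesus macaque on at least 1 side of the silent exon. On chromosome 1 from 231460397 to 231461713, an exon of 1317 bases had 17, 17, 24, 29, 14 and 29 counts and took 30.8% of the chimpanzee counts of its gene. That gene had only 71 counts in rhesus macaque, so a share of up to 4.23% is allowed there.

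A gene on chromosome 14 from 102468470 to 102548278 held 2 exons of 149 bases each silent in rhesus macaque, with same-ratio counts of 11.7 and 10.7. The exon from 102535655 to 102535803 had 16, 4, 15, 15, 3 and 9 chimpanzee counts, and that from 102500592 to 102500740 had 1, 2, 15, 13, 6 and 20. The exons beside them had 29 to 83 counts in chimpanzee and from 0 to 2 in rhesus macaque, unlike the exons beside the end exons above.

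Among the genes with at least 50 counts on the other exons in both species, 5 of the 8 exons silent in chimpanzee with a same-ratio count of 10 or more belonged to 1 gene identifier, ENSG00000147459, on chromosome 8. Its exons fell into 2 stretches that are 881 kb apart. Exons 1 to 51, from 25098204 to 25326536, held 6 chimpanzee and 1593 rhesus macaque counts, and 45 of these 51 exons were at 0 in chimpanzee. Exons 52 to 59, from 26207099 to 26284562, held 2305 and 1372 counts. The first stretch stood at 0.431 ± 0.426 CPM for chimpanzee against 86.6 ± 35.6 CPM for rhesus macaque, and the second at 139 ± 30.7 against 80.0 ± 14.5 CPM (SD, n = 6 each). All 6 chimpanzee libraries were under 1.2 CPM in the first stretch, where the lowest rhesus macaque library had 47.1 CPM. In the second stretch the chimpanzee libraries, from 108 to 186 CPM, all lay above the rhesus macaque libraries, from 65.1 to 105 CPM. The 5 silent exons, with 50 to 58 rhesus macaque counts, lie in the first stretch, where the one other exon with at least 50 counts, exon 51, had 1 chimpanzee and 574 rhesus macaque counts. Their same-ratio counts, from 42.8 to 49.7, rest on the other exons of both stretches, of which the first gave 6 of the 2311 chimpanzee counts. The boundary between the stretches was placed after the counts were seen. The sum over both, 2311 chimpanzee counts on the other exons against 2697, showed no called difference (log2 fold change -0.13, standard error 0.18, edgeR adjusted p = 0.586).

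**Figure D5:**
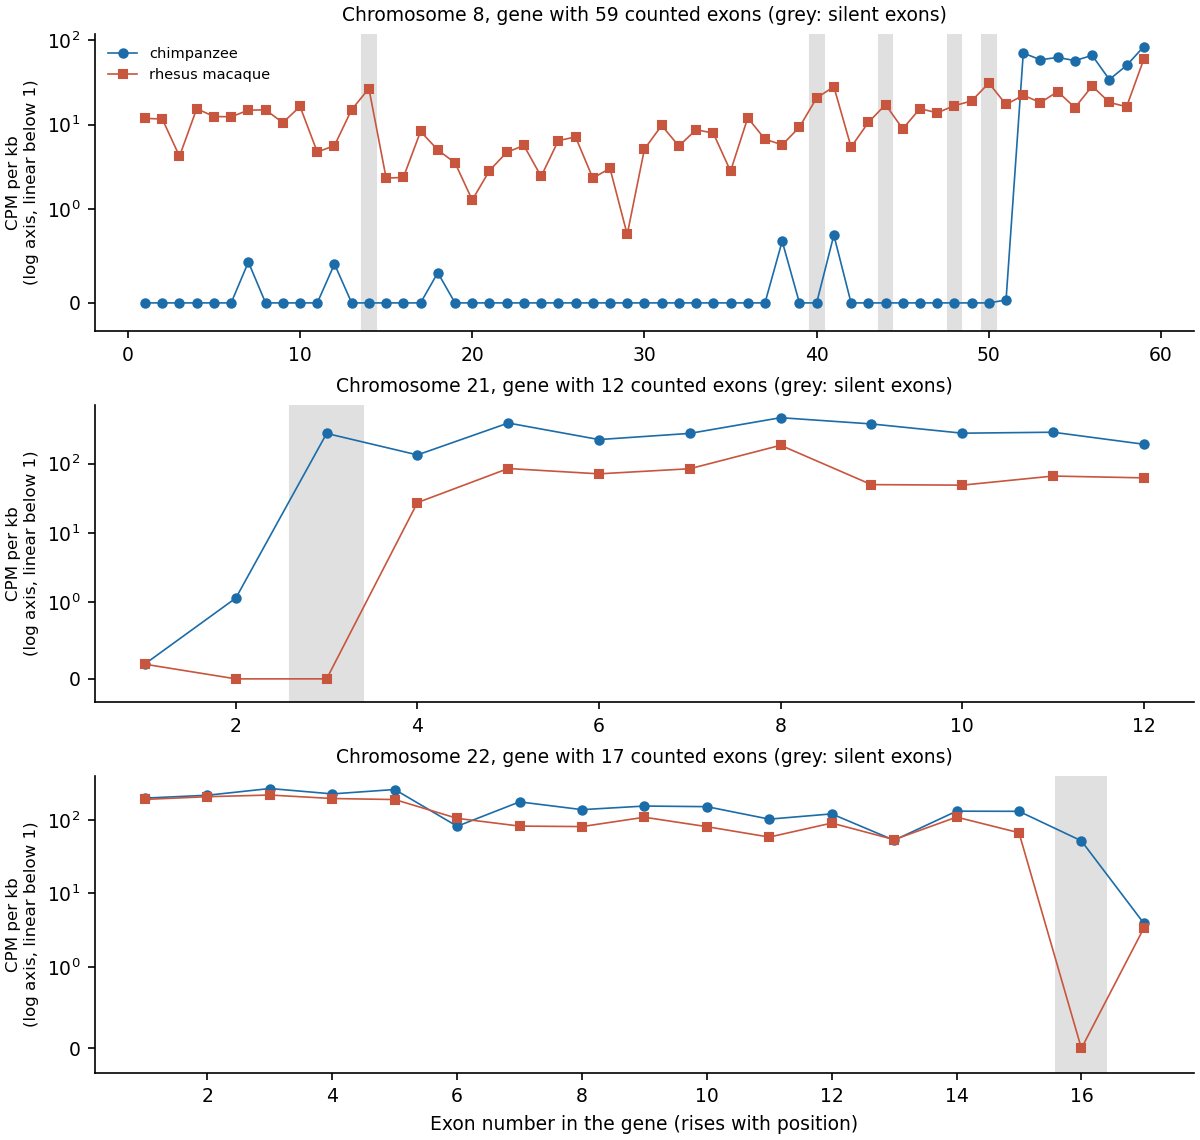
CPM per kb of each exon (log axis, linear below 1), pooled over the 6 libraries of each species, against the exon number in 3 genes. Grey bands mark silent exons. The chromosome 8 gene is read in chimpanzee (blue) from exon 52 on, the chromosome 21 gene is read in chimpanzee from exon 3 and in rhesus macaque (red) from exon 4, and in the chromosome 22 gene exon 16 alone drops to 0 in rhesus macaque.

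The remaining 3 of these 8 exons were in separate genes. On chromosome 5 a gene with 2 exons had 94 chimpanzee and 89 rhesus macaque counts on its second exon. Its first exon, from 90808096 to 90808215, had 3, 3, 6, 11, 14 and 18 counts in rhesus macaque replicates 1 to 6. That exon took 38.2% of the rhesus macaque counts, against a share of up to 3.19% that 0 of 94 counts allow in chimpanzee. On chromosome 19 an exon from 43655857 to 43656251 had 1, 6, 4, 14, 11 and 30 counts, and its neighbours had 18 and 39 rhesus macaque counts against 0 and 1 in chimpanzee. The exon of 34 bases on chromosome 12 given above had 7, 3, 3, 31, 10 and 18 counts. Of these 3, the chromosome 5 exon alone lay beside an exon read at a similar level in both species.

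Sex was not used to choose the exons, and it was tested within each species on all exons, female minus male, by the labels. Of the 292 exons read in chimpanzee 189 passed the filter on low counts and 0 were called (edgeR quasi-likelihood test, adjusted p under 0.05, over 41998 exons, of which 0% were called). Of the 256 exons read in rhesus macaque 235 passed and 0 were called (43103 exons, 0% called). The smallest adjusted p (edgeR) among the chimpanzee exons was 0.589. On simulated counts this test called 0% of 2-fold changes in both species. It called 44.4% of 4-fold changes in chimpanzee and 22.2% in rhesus macaque, so 0 calls do not show that sex differences are absent. At an unadjusted p under 0.05 there were 43 exons of 24 genes in chimpanzee (22.8%, against 7.75% of all exons), 21 higher and 22 lower in females. A single gene, on chromosome 10 from 95059767 to 95232064, supplied 11 of them, all lower in females. In rhesus macaque there were 16 exons of 11 genes (6.81%, against 1.99% of all exons). Exons of 1 gene share their source, so these numbers are not counts of independent differences. DESeq2's Wald test called 2 exons in chimpanzee, both in that chromosome 10 gene and lower in females, and 1 in rhesus macaque, in a chromosome 8 gene and also lower in females (0.239% and 0.0641% of all exons with an adjusted p). It gave no adjusted p for 78 of the 189 exons in chimpanzee and 190 of the 235 in rhesus macaque, which could not be called. Without chimpanzee replicate 1, edgeR called 18 exons of 14 genes, 7.69% of those tested, against 3.33% of all exons.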

How the data were processed

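RNA sequencing libraries of 6 chimpanzee and 6 rhesus macaque lymphoblastoid cell lines were used. Per the labels' protocols, RNA was taken with a Qiagen RNeasy kit, and end-repaired cDNA was fitted with Illumina adapters, size selected, amplified by PCR and read on a GAII. The steps named mark no strand. Each deposited file lists exons of 1 library with their raw counts, all whole numbers of at least 1. An exon not listed was taken as 0. The aligner, counting tool, genome build and rule for matching exons between species have no mention in the sources used here, and whether an exon is present in each species' genome was not tested. No sequence is printed, because no genome was used here. The human lines named in the series design were not analysed here.

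Exon counts were summed per species and the rule given at the start of the results was applied. Length is end minus start plus 1. None of the silent exons overlaps an exon of another gene (0 of 548). CPM used library sizes scaled by TMM factors from gene sums. Species and sex were tested in R 4.3.3 by the quasi-likelihood method of edgeR 4.0.16, on features kept by filterByExpr (count minimum 10, total minimum 15), with Benjamini-Hochberg adjustment over all features tested. Standard errors beside edgeR log2 fold changes are the absolute change divided by the square root of the test's F statistic. DESeq2 1.42.0, other scaling, no filter, other thresholds and leaving out each library in turn were the alternatives. The fits were also tried on simulated data. There the species test called 30.6% of 2-fold and 95.8% of 4-fold changes, and the sex test fewer, as given above.

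The exons and lists were chosen with earlier results of these data known. Exons named are the 10 most read per direction, the 3 most read by place, the 5 in genes with most counts on other exons in the silent species, the genes with most silent exons, and those at the threshold. The exons with a same-ratio count of at least 10 in genes read in both species, the short exons and the genes in the closing section were added after their values were seen. Gene groups and cell markers fixed by symbol could not be run, because the files do not pair identifiers with symbols. The p-values set each difference against the spread between these libraries.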

Additional observations from a re-analysis of the deposited data

Results flagged for a closer look

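Of 43 silent exons named by the rule, 9 had a library whose distance from the nearest other one was large against the range of the 6 libraries that read the exon, beyond the 95% critical value of Dixon's test. Chance flags about 1 in 20 groups of independent, normally distributed values, and whether these CPM are so distributed was not tested. These exons were also chosen by the same counts, mostly for high sums, and some share a gene. Their number is therefore not set against that share. In each of the 9 the library set apart was the highest. In rhesus macaque, replicate 1 stood at 236 CPM for the exon on chromosome 11 from 8903586 to 8904230, where the next library had 34.2 CPM. Replicate 1 also stood at 127 CPM for the exon on chromosome 7 from 36546450 to 36546622, with 28.5 CPM next. Replicate 5 stood at 83.4 CPM for the exon on chromosome 3 from 171680772 to 171681649, with 11.6 CPM next.

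In chimpanzee, replicate 1 stood at 348 CPM for the exon on chromosome 11 from 34636955 to 34639657, with 54.5 CPM next. Replicate 5 stood at 139 CPM for the exon on chromosome 1 from 205712740 to 205713147, with 17.1 CPM next. Replicate 4 was apart at 2 exons, with 149 CPM on chromosome 16 from 56006494 to 56006611 (32.4 CPM next) and 57.2 CPM on chromosome 5 from 132021764 to 132021951 (25.6 CPM next). Replicate 2 was apart at 2 exons whose genes were read in both species, with 56.8 CPM on chromosome 21 from 41721552 to 41721663 (34.3 CPM next) and 7.30 CPM on chromosome 6 from 13687662 to 13687820 (3.45 CPM next). The other 5 chimpanzee libraries read both of these exons, from 22.5 and from 2.40 CPM upwards.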

How the results depend on the processing

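The number of silent exons moves with the threshold. With a sum of at least 20 there were 646 exons silent in chimpanzee and 850 in rhesus macaque, with at least 100 there were 116 and 115, and with at least 50 counts on the gene's other exons in both species 21 and 23. Leaving out each library in turn gave from 184 to 311 exons silent in chimpanzee and from 213 to 361 silent in rhesus macaque. Genes holding silent exons that were called higher in chimpanzee on their other exons numbered 81, and from 81 to 103 without one library. Those called lower numbered 51, and from 51 to 65. Without the filter on low counts they were 130 and 97. The scaling, DESeq2 and exons counted in both species left these 2 counts within 1.5 times. The share called among all genes was worked out for the main fit only, so nothing is read from the counts under other settings. In the sex tests, DESeq2 called 2 and 1 exons in chimpanzee and rhesus macaque and edgeR without the filter 53 and 23, against 0 and 0. Without the filter these are 18.2% and 8.98% of the silent exons tested, in 26 and 12 genes, against 0.844% and 0.341% of all exons. The sets are unlike, because silent exons have at least 50 counts and the unfiltered exons were kept with any count. Nothing is read from this contrast. Without one library edgeR called from 0 to 18 in chimpanzee (18 without replicate 1) and 0 in rhesus macaque, where leaving out replicate 4 or 5 leaves 1 female line, assumed to vary like the males. The cause was not tested. Depth limits the zeros: 3 counts over 6 libraries are 0.178 CPM for chimpanzee and 0.173 for rhesus macaque.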

Other observations

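One gene had its exons divided between the species. On chromosome 4, the exons from 5873393 to 5874479, from 5878122 to 5878287 and from 5881117 to 5881296 held 26, 4 and 20 chimpanzee counts and none from rhesus macaque. The exon from 5889393 to 5889534 held 0 and 87. It was the single case in which the other exons held no count in the species that reads the silent exon.

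By chromosome, the share of well-read exons silent in chimpanzee was highest on chromosome 21 (1.77%) and 0 on chromosomes 13 and 18. On chromosome 21, 6 silent exons lay in 1 gene, from 44530191 to 44540756, and 2 in another, from 42356137 to 42422976. The share silent in rhesus macaque was highest on chromosome 10 (1.86%, 35 exons of 11 genes) and lowest on chromosome 19 (0.0662%). Of those 35 exons, 21 lay in 1 gene, from 95059767 to 95232064. On chromosome 1 the 51 exons silent in chimpanzee came from 11 genes. Neighbouring genes that both held silent exons of the same kind numbered 5 pairs. The closest pairs were those on chromosome 12 from 121222530 to 121253970 (silent in chimpanzee) and on chromosome 2 from 6905904 to 6951285 (silent in rhesus macaque).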
